A study of Mus musculus with 2 samples.

Results

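Hcrt, Pmch, Cartpt, Gal, Trh, Oxt, Avp, Agrp, Npvf and Ghrh encode peptide precursors made by neurons of the hypothalamus, and are described here in nuclei from the mouse ventral tegmental area (VTA), the midbrain region just behind it. These 10 of the 32285 genes counted were matched by symbol, and all 10 had at least 1 UMI (a counted molecule) in both libraries and at least 20 over both. They were proposed because their transcripts had been seen in these libraries, so the levels given here describe the libraries and support no further statement. The series holds 2 libraries of single-nucleus RNA sequencing from the VTA of adult mice, 1 named WT and 1 named CCI. CCI is chronic constriction injury, by which nerve-injury pain was produced on the left side; the right sciatic nerve was exposed and left without ligature. Strain, sex, hemisphere, whether WT mice had sham surgery, and the number of animals behind each library are not given in the sources used here. With 1 library per group there is no replicate error: every interval below is a 95% interval for counting error only, and no test between the groups was possible.

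Hypothalamic peptides are cut from longer precursors inside secretory granules and act on G protein-coupled receptors, some of them in the VTA. Orexin (Hcrt) and melanin-concentrating hormone (Pmch) neurons lie intermingled in the lateral hypothalamus and send axons to the midbrain, while their messenger RNA is found mainly in the cell bodies. A nucleus with many transcripts of these genes is therefore read, as background knowledge, as a nucleus from a neuron that makes the peptide. Oxytocin (Oxt) and vasopressin (Avp) come mainly from magnocellular neurons of the paraventricular and supraoptic nuclei, and agouti-related peptide (Agrp) from neurons of the arcuate nucleus.

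The proximal promoters of Hcrt and Pmch are shown because these genes had the most nuclei with a high level, described further on. The windows are the 250 bases before the annotated start, from RefSeq on GRCm38.p6, 5′ to 3′ on the gene's own strand, with the letters TATAAA in capitals. The Hcrt window is chr11:100762932-100763181 on the minus strand and the Pmch window is chr10:88090822-88091071 on the plus strand.
Hcrt: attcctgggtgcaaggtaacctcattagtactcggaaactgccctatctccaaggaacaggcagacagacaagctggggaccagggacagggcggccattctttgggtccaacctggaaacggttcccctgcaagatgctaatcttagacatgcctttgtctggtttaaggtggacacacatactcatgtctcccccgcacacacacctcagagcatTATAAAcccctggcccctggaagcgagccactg
Pmch: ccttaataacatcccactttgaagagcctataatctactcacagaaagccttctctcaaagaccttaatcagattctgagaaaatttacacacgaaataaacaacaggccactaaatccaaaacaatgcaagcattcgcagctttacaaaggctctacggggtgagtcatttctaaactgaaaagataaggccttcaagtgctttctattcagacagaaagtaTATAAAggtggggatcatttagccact
TATAAA, the core of the TATA box, began 33 bases before the Hcrt start and 27 bases before the Pmch start. A window was found for 9 of the 10 members, and Npvf and the second of the Ghrh windows also held TATAAA, beginning 29 and 31 bases before the start. Among 32851 mouse promoter windows, 863 (2.63%) had TATAAA on the gene's strand within 50 bases of the start, and 12.4% had it anywhere on either strand. The full site TGACGTCA of the cAMP response element lay 112 bases before the Cartpt start and in 1.55% of all windows, and TAATTA, a homeodomain core, occurred in the Npvf and Ghrh windows and in 4.84% of all windows. These matches describe letters in a window and not use of a site.

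After filtering and removal of doublets, 12191 WT nuclei with 15984042 UMIs and 12769 CCI nuclei with 61069266 UMIs remained. The median kept nucleus held 975 UMIs in WT and 3456 in CCI, so a nucleus of the CCI library had a higher chance of showing any low transcript. Of all the deposited barcodes, 54 occurred in both libraries. Nuclei were assigned by marker genes to neurons (5557 in WT, 6587 in CCI), oligodendrocytes (4157 and 3697), astrocytes (586 and 1353), oligodendrocyte precursors (322 and 337) and microglia (80 and 342), the last 4 together being called glia. Neurons had median depths of 1681 UMIs in WT and 6293 in CCI, and glia 731 and 2039. Dopaminergic genes, which define the labelled tissue, were present in both libraries. The summed level of 7 of them was 554 CPM (UMIs scaled to a library total of 1000000) in WT against 290 CPM in CCI. At least 2-fold lower in CCI were 4 of the 7, beside 2.1% of the 19924 genes with at least 20 UMIs over both.

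Over all kept nuclei, Hcrt had 7 UMIs in WT (0.438 CPM) and 920 in CCI (15.1 CPM), a log2 ratio of CCI to WT of 5.10 (4.06 to 6.42). Pmch had 208 UMIs in WT (13.0 CPM) and 3328 in CCI (54.5 CPM), a log2 ratio of 2.07 (1.86 to 2.28). Both genes were thus far higher in the CCI library. The intervals of their ratios did not overlap, but they leave out the spread between nuclei, and few nuclei held most of these UMIs in CCI. Cartpt had 39 and 479 UMIs (log2 ratio 1.68, 1.21 to 2.19), Gal had 19 and 377 (2.38, 1.71 to 3.12), and Ghrh had 5 and 45 (1.24, −0.09 to 2.93). Trh had 1 WT UMI and 115 CCI UMIs (log2 ratio 4.91, 2.40 to 10.23), Oxt 2 and 73 (3.26, 1.35 to 6.33) and Npvf 1 and 47 (3.62, 1.07 to 8.95), ratios whose WT side rests on 1 or 2 molecules. Avp had 12 and 73 UMIs (0.67, −0.22 to 1.69) and Agrp 668 and 2648 (0.05, −0.07 to 0.18), and for these genes the interval included 0. In all, 8 of the 10 members were at least 2-fold higher in CCI and 0 were at least 2-fold lower, beside 5.02% and 2.1% of the 19924 genes with at least 20 UMIs. Within the neuron gate 7 members were at least 2-fold higher and 0 lower, beside 4.22% and 2.9% of 18922 genes. The members were proposed with this contrast known, so nothing is read from these counts.

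**Figure D1:**
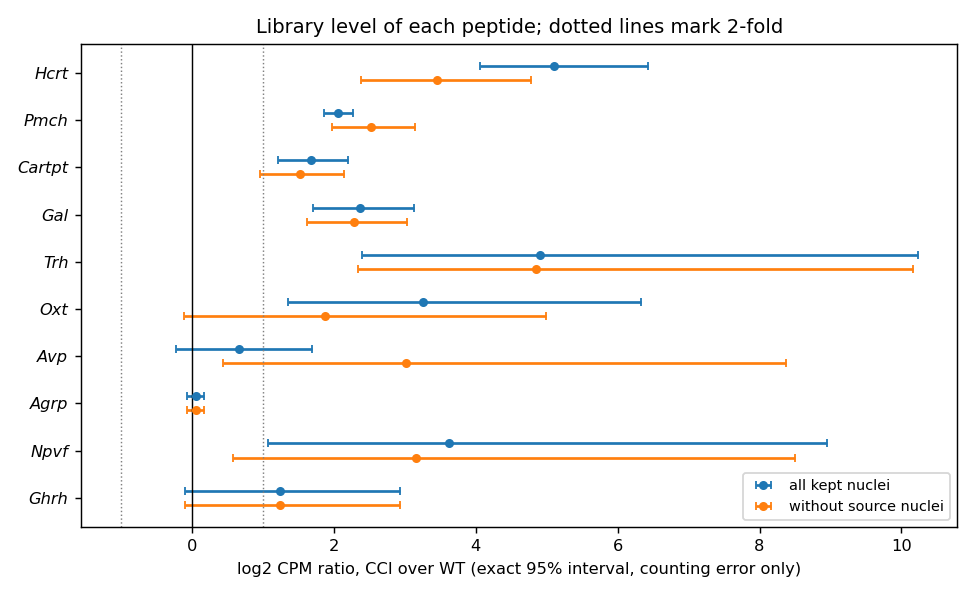
Log2 ratio of CPM, CCI over WT, for each of the 10 peptide genes over all kept nuclei (blue) and with source nuclei left out (orange), with 95% intervals for counting error and dotted lines at 2-fold. Hcrt (5.10) and Trh (4.91) lie highest and Agrp (0.05) lies on the zero line, and leaving out source nuclei lowers Hcrt to 3.45 and raises Pmch to 2.53.

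To ask how concentrated each transcript was, a nucleus was called a source nucleus of a peptide when it held at least 5 of its UMIs and at least 2000 CPM of it. By this rule 11 WT nuclei and 52 CCI nuclei were source nuclei of some member, and none was a source of 2 members. A second measure is the effective number of nuclei, which is the number that would hold all UMIs if each held an equal share.

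Hcrt, the orexin precursor (mm10 chr11:100761069-100762931, minus strand), had no source nucleus in WT: its 7 UMIs lay in 7 different nuclei. In CCI, 200 nuclei held an Hcrt UMI, of which 175 held only 1, while 11 source nuclei held 628 of the 920 UMIs (68.3%, 65.1 to 71.3). Those 11 nuclei held 104, 82, 81, 79, 62, 53, 47, 46, 39, 26 and 9 Hcrt UMIs, at total depths from 3270 to 20698. They were thus 0.167% of the CCI neurons, and the effective number of nuclei was 18.4. At the edge of the rule, the lowest source nucleus had 9 UMIs (2752 CPM) and the highest nucleus outside it by CPM had 17 UMIs (1925 CPM). A neuron with 32 Hcrt UMIs also fell below 2000 CPM. All 11 passed the neuron gate.

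Orexin neurons also make dynorphin, carry the transcription factor Lhx9, and use glutamate. The 11 Hcrt source nuclei had Pdyn, the prodynorphin gene, in 5 nuclei at 93.2 CPM against 2.73 CPM in the other CCI neurons (log2 ratio 5.09, 4.05 to 5.98). Lhx9 was found in 7 of the 11, at 144 CPM against 6.51 CPM (4.47, 3.67 to 5.17), and 4 nuclei held both Lhx9 and Pdyn. Nptx2, a neuronal pentraxin, was in 3 of the 11 (3.27, 1.37 to 4.65). Slc17a6, the vesicular glutamate transporter VGLUT2, was in 8 of the 11, at 102 CPM against 150 CPM (−0.56, −1.51 to 0.25). Of the 6 partner genes listed for orexin neurons, 5 were at least 2-fold higher in the source nuclei, the exception being Slc17a6. Scg2 (2.09) and Nek7 (3.48) were among the 5, and Nek7 was at 159 CPM in glia. The share of all genes at least 2-fold higher in these nuclei is not given here, so nothing is read from this count. Pcsk1, a prohormone convertase, was in all 11 at 635 CPM against 48.5 CPM (3.71, 3.36 to 4.04). The depths of these nuclei (median 10194) exceeded that of the neurons, so the shares of nuclei with a UMI are not at matched depth, whereas CPM scales each sum by its total UMIs.

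The genes whose pattern was most like Hcrt, ranked by the lower bound of the source to other-neuron ratio among 1107 genes, were Rfx4, Ros1, Hmcn1, C1ql3 and Diaph3. Rfx4 was in 11 of the 11 nuclei at 737 CPM against 11.9 CPM (5.95, 5.61 to 6.28). Ros1 had 21 UMIs in 9 nuclei (6.15), Hmcn1 67 UMIs in 8 (5.17), C1ql3 38 UMIs in 10 (4.51) and Diaph3 21 UMIs in 8 (4.26). The likeness rests on 11 nuclei of 1 library.

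Pmch, the precursor of melanin-concentrating hormone (chr10:88091072-88092375, plus strand), was concentrated in both libraries. In WT 8 source nuclei, all in the neuron gate, held 46, 34, 28, 24, 15, 14, 13 and 7 Pmch UMIs, together 181 of 208 (87.0%, 81.7 to 91.3). In CCI 32 source nuclei held from 7 to 417 UMIs (median 68.5), together 2734 of 3328 (82.2%, 80.8 to 83.4). The share of Pmch UMIs in source nuclei was thus high in both libraries, with overlapping intervals, although the level differed. The effective number of nuclei was 8.16 in WT and 24.8 in CCI. Of the 32 CCI source nuclei 28 were in the neuron gate, 0.425% of the CCI neurons (0.283 to 0.614), against 0.144% in WT (0.062 to 0.283). The other 4 passed a glial gate (3 oligodendrocyte, 1 astrocyte) and also held 5 to 8 neuron-marker UMIs. The WT source nuclei had total depths from 1096 to 3043, those of CCI from 1027 to 26320, and the rule asks for 5 UMIs in each, so the shares of neurons are not at matched depth. The lowest CCI source nucleus by CPM had 12 UMIs (2746 CPM) and the highest outside the rule by CPM had 10 (1398 CPM).

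Melanin-concentrating hormone neurons are known to fall into a type with Cartpt and the neurokinin receptor gene Tacr3 and a type without them. Among the 32 CCI source nuclei, 5 held both Cartpt and Tacr3, 4 only Cartpt, 8 only Tacr3 and 15 neither. Tacr3 was at 155 CPM in 13 of them against 20.4 CPM in the other neurons (2.92, 2.42 to 3.39), and Cartpt at 85.8 CPM in 9 against 8.54 CPM (3.33, 2.62 to 3.96). At this depth a nucleus without a UMI of these genes may still have expressed them. Otx1, a transcription factor, was in 7 source nuclei (4.84, 3.45 to 5.99) and Nkx2-1, which marks the ventral forebrain and hypothalamus, in 13 (4.32). Gad1, the GABA-synthesis enzyme, was in 16 (0.95, 0.36 to 1.49), but Slc32a1, the vesicular GABA transporter, was in 2 (−2.34), and Slc17a6 was in 11 at 69.5 CPM against 150 CPM (−1.11, −1.89 to −0.43). Gad2, the other GABA-synthesis enzyme, was in 4 at 24.5 CPM against 114 CPM (−2.22, −3.67 to −1.10). Of these 4 transmitter genes only Gad1 was thus above the level of the other neurons. Nptx1 (0.48, −0.97 to 1.61) was not 2-fold different. Parpbp had 5 UMIs in 4 of the nuclei (3.47), but it overlaps Pmch on the opposite strand, and the strand used for counting is not given in the sources used here.

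The convertases differed between the kinds of source nuclei. Pcsk2 was in 28 of the 32 Pmch source nuclei at 1610 CPM, against 515 CPM in the other neurons (1.64, 1.497 to 1.788), while Pcsk1 had 3 UMIs in 2 of them (−2.03, −4.31 to −0.48). In the Hcrt source nuclei Pcsk1 was the enriched convertase and Pcsk2, at 618 CPM, was near the other neurons (0.25, −0.10 to 0.58). The intervals of the log2 ratios of the Hcrt and Pmch source nuclei did not overlap for either enzyme, but they leave out the spread between nuclei. Among 2289 genes ranked, those most like Pmch were Tent5a (4.21), Igf1 (3.52), Deptor (3.20), Sfta3-ps (3.09) and Ell2 (3.07). None of them was among the 5 named for Hcrt.

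In the 8 WT Pmch source nuclei, Cartpt was in 2, Gad1 in 2, Pcsk2 in 7 and Nkx2-1 in 1. None of these 8 held Hcrt, and none of the 32 in CCI did. Gal, Lhx9, Pdyn and Sim1 were also at 0 UMIs in the 32 CCI nuclei, which had a median depth of 6232 UMIs. Conversely, Pmch was found in 1 of the 11 Hcrt source nuclei, with 1 UMI.

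**Figure D2:**
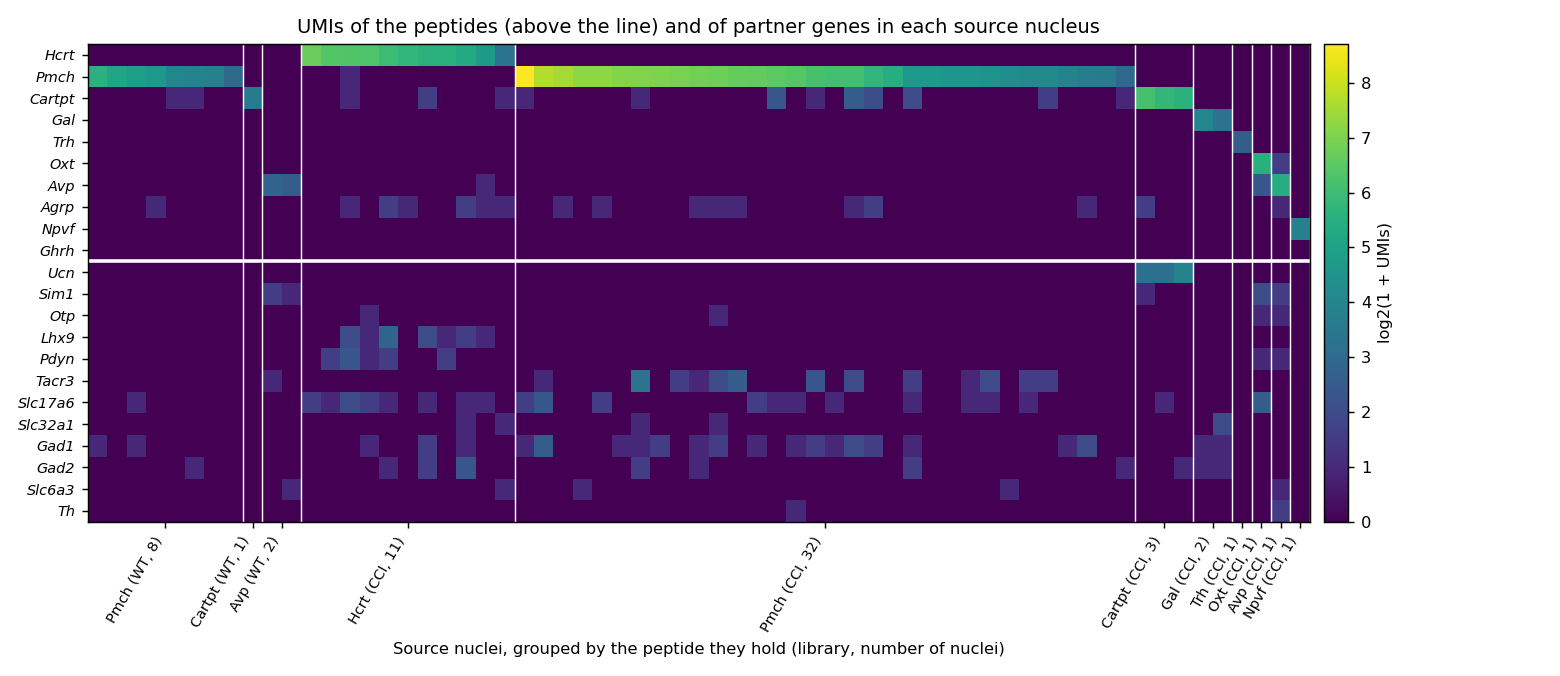
UMIs of the 10 peptide genes and of partner genes (rows) in each of the 63 source nuclei (columns, grouped by library and peptide), shaded by log2(1 + UMIs). Each source nucleus is bright for its own peptide, with Lhx9 and Pdyn in part of the Hcrt nuclei and Cartpt and Tacr3 in part of the Pmch nuclei.

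Oxt and Avp lie next to each other on chromosome 2, in mm10 at chr2:130576173-130577054 on the plus strand and chr2:130580620-130582554 on the minus strand. Their precursors carry related neurophysins, and the spliced transcripts share an identical run of 127 bases, shown because reads from within it fit either gene.
Oxt and Avp: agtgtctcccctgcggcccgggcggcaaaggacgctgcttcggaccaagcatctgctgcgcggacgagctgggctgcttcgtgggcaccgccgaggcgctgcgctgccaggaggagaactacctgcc
The run lies inside the coding part of both genes and ends 255 bases before the 3′ end of the Oxt transcript and 307 bases before that of Avp. A 3′ library samples mainly sequence near the transcript ends, and how often reads fell within the run was not measured. In CCI 1 nucleus held 45 of the 73 Oxt UMIs (61.6%, 49.5 to 72.8), together with 4 Avp, 3 Sim1, 1 Otp and 5 Slc17a6 UMIs. Sim1 and Otp encode transcription factors of the paraventricular and supraoptic lineages. A different nucleus held 42 of the 73 Avp UMIs (57.5%, 45.4 to 69.0), with 2 Oxt, 2 Sim1 and 1 Otp UMIs. In WT 2 nuclei held 6 and 5 of the 12 Avp UMIs, with 2 and 1 Sim1 UMIs, and Oxt had single UMIs in 2 nuclei. Most of each gene's signal thus came from 1 or 2 nuclei wherever a source nucleus was found, and the log2 Avp ratio between the libraries moved from 0.67 to 3.02 (0.44 to 8.37) without them, with 1 UMI left in WT and 31 in CCI.

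Cartpt, which encodes cocaine- and amphetamine-regulated transcript (chr13:99898489-99901091, minus strand), was spread more widely. In CCI 3 source nuclei held 72, 53 and 46 UMIs, together 171 of 479 (35.7%, 31.4 to 40.2), and the other 308 lay mostly as single UMIs in 197 nuclei. All 3 also held Ucn, the urocortin gene, with 8, 8 and 14 UMIs, and Ucn had 32 UMIs in 5 kept CCI nuclei and 0 in WT. Cartpt with Ucn is the known pair of centrally projecting Edinger-Westphal neurons, a midbrain group next to the VTA, and none of the Pmch source nuclei, of which 9 held Cartpt in CCI, held Ucn. In WT 1 nucleus held 11 of the 39 UMIs (28.2%) without Ucn, and the remaining 28 lay in 28 nuclei.

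Gal, the galanin gene (chr19:3409915-3414544, minus strand), was diffuse. In WT its 19 UMIs lay in 16 nuclei, and no nucleus met the source rule. In CCI 377 UMIs lay in 201 nuclei with an effective number of 102, and 2 source nuclei with 15 and 9 UMIs held 6.37% of them. At the edge, 9 UMIs (2055 CPM) passed and 8 UMIs (1980 CPM) did not. Because few nuclei met the source rule, neurons with at least 3 UMIs are described instead. Of 36 such CCI neurons, 26 held Gad2 (log2 ratio of CPM to the other neurons 1.07), 20 held Gad1, 15 Slc32a1 and 5 Slc17a6 (−2.36). Isl1, a homeodomain factor of arcuate and other ventral forebrain neurons, was in 12 of the 36 against 4.49% of the other neurons (3.10). Slc6a3, the dopamine transporter, was in 1. The Gal neurons of CCI thus held Gad2 more often than Slc17a6.

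Trh, thyrotropin-releasing hormone (chr6:92242061-92244650, minus strand), had 115 UMIs in 60 CCI nuclei, 1 source nucleus with 5 UMIs, a highest count of 12 UMIs in a nucleus below 2000 CPM, and an effective number of 31.6 nuclei. Of 10 CCI neurons with at least 3 Trh UMIs, 5 held Sim1 (2.98 on the log2 scale, against 10.5% of the other neurons with a UMI), 3 Slc17a6, 1 Gad2 and 0 Slc32a1. Npvf, the precursor of RFamide-related peptides made in the dorsomedial hypothalamus (chr6:50650672-50654439, minus strand), had 47 CCI UMIs, of which the leading 3 nuclei held 13, 11 and 6, and 1 met the source rule. The effective number was 6.37. Ghrh, growth hormone-releasing hormone (chr2:157329497-157347506, minus strand), had 45 UMIs in 31 CCI nuclei and no source nucleus. In WT Trh and Npvf had 1 UMI each and Ghrh had 5 in 4 nuclei, too few to describe a distribution.

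**Figure D3:**
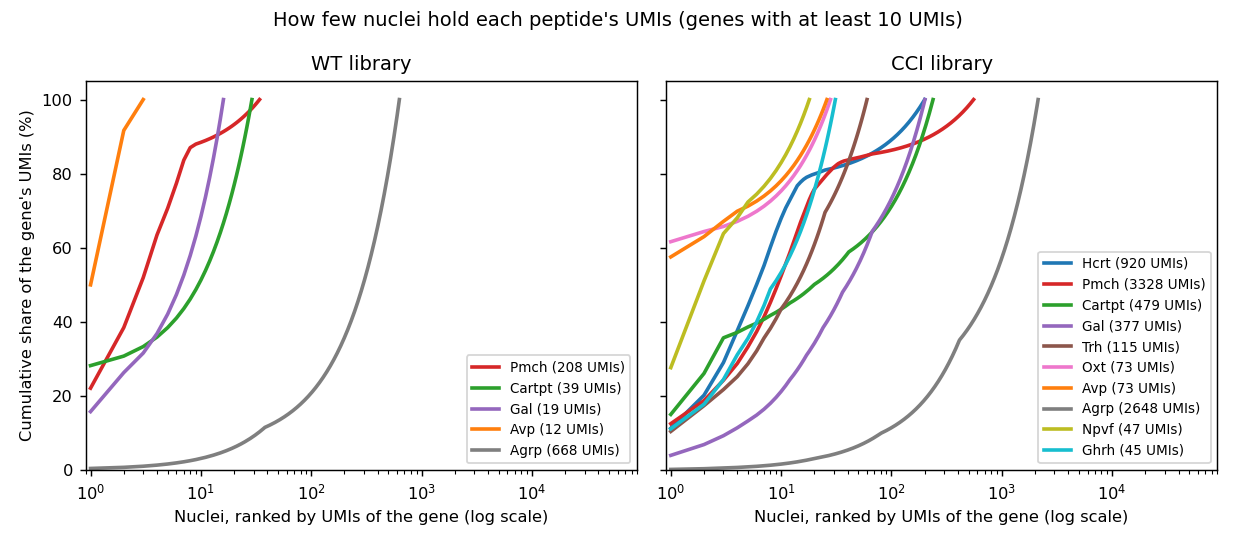
Cumulative share of each peptide's UMIs (y axis, percent) against the number of nuclei ranked by their UMIs of that peptide (x axis, log scale), for members with at least 10 UMIs in the WT (left) and CCI (right) library. In CCI the curves of Oxt and Avp start high with the first nucleus (61.6% and 57.5%), those of Hcrt and Pmch climb and then bend near their source nuclei (68.3% and 82.2%), and those of Gal and Agrp rise latest, with effective numbers of nuclei from 2.59 for Oxt to 1781 for Agrp.

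Agrp was the most widely spread member by the effective number of nuclei in both libraries. It had UMIs in 629 WT nuclei (5.16%) and 2132 CCI nuclei (16.7%), never more than 3 and 5 in a nucleus, no source nucleus, and effective numbers of 597 and 1781 nuclei. Its variance over nuclei was 1.06 times its mean in WT and 1.28 times in CCI, where random sampling of an evenly spread transcript gives 1, while in CCI the same measure was 2.02 for Ghrh, 3.63 for Trh, 3.67 for Gal and from 7.38 for Npvf to 134 for Pmch among the others. Npy, which arcuate Agrp neurons make together with Agrp, was in 2 of the 629 and 54 of the 2132 nuclei with Agrp (0.318% and 2.53%). Conversely, Agrp was in 9.09% of the 22 WT nuclei and 29.8% of the 181 CCI nuclei with Npy, beside its 5.16% and 16.7% of all nuclei. The share of all nuclei includes glia: CCI neurons held 36.2 Agrp UMIs per 100 nuclei and CCI glia 4.10. Of the 283 Npy UMIs of CCI, 247 lay in the neuron gate. The nuclei with Npy are therefore not matched to all nuclei, and no shared expression is read from these shares. The annotated Agrp gene spans 70.7 kb in mm10 (chr8:105566698-105637393, minus strand), with transcripts that span from 1.601 to 70.7 kb. It overlaps 7 other genes, among them Ripor1 and Ctcf on the opposite strand and 2 on the same strand. The long form starts far upstream of the short ones, so a UMI of Agrp in these files need not come from the peptide-coding part. The level was alike in the libraries (41.8 and 43.4 CPM), but thinned to 1000 UMIs per nucleus the log2 ratio was −0.40.

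The background of each peptide was read from glia, which are not the main known source of these peptides, beside neurons without the source nuclei. In CCI, Hcrt was at 4.05 CPM in glia (3.02 to 5.31; 52 UMIs, at most 2 in a nucleus) and 4.85 CPM (4.25 to 5.53) in neurons without source nuclei. For Pmch, glia without source nuclei were at 18.2 CPM (15.9 to 20.6) and neurons at 7.20 CPM (6.46 to 8.01), a log2 ratio of glia to neurons of 1.33. Per nucleus the order was the opposite, with 4.07 Pmch UMIs per 100 glia (3.56 to 4.63) and 5.17 per 100 neurons (4.63 to 5.75). A CPM sets these UMIs against a median glial depth of 2039 UMIs and a neuronal depth of 6293. By comparison, 6 pan-neuronal genes had a glial CPM of 13.3% to 30.9% of the neuronal one, with a median of 20.6%. Pmch outside the source nuclei was thus higher in glia by CPM and higher in neurons per nucleus, with at most 5 UMIs in a glial nucleus and 16 in a neuron.

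By CPM, Pmch without source nuclei was above the 7.20 CPM of neurons in each glial class of CCI. It was at 19.2 CPM in oligodendrocytes, 14.97 CPM in astrocytes, 19.1 CPM in precursors and 22.5 CPM in microglia. Hcrt was at 3.88, 4.03, 4.54 and 5.63 CPM. Per 100 nuclei, Pmch had 4.01, 3.85, 6.23 (3.86 to 9.53) and 3.51 UMIs in the same order, beside 5.17 in neurons. Precursors were thus not below neurons per nucleus. Hcrt made up 16.9% (11.7 to 23.2) of the Hcrt and Pmch UMIs in oligodendrocytes, 21.2% in astrocytes and 19.2% in precursors, and microglia held 3 Hcrt and 12 Pmch UMIs. In the Hcrt and Pmch source nuclei together it made up 18.7% (17.4 to 20.04), inside the interval of every glial class. In neurons without source nuclei the share was 40.3% (36.3 to 44.5), and 31.8% (27.5 to 36.3) after leaving out nuclei with at least 3 UMIs and 1000 CPM as well. Hcrt and Pmch were thus found in glia at close to the ratio of the source nuclei. The neuronal share depends on where the source rule cuts. The CCI source nuclei had a median of 4511 CPM for Hcrt and 9561 CPM for Pmch, so the same cut lies nearer to those of Hcrt. After the second step neurons with up to 7 Hcrt UMIs were still left. Whether neurons outside the source nuclei held relatively more Hcrt was therefore not tested by these shares.

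Thinned to 1000 UMIs per nucleus, which left out 6293 WT and 311 CCI nuclei, Hcrt was found in 0.552% of CCI neurons (0.387 to 0.763) and 0.450% of CCI glia (0.291 to 0.663). Pmch was found in 1.30% of neurons (1.04 to 1.61) and 2.09% of glia (1.73 to 2.50). Without thinning the shares were 2.13% and 0.890% for Hcrt and 4.68% and 3.96% for Pmch. At matched depth the neuronal share was not above the glial share beyond counting error for Hcrt and was below it for Pmch, so no expression is read from these shares. This says nothing of neurons with several UMIs, and outside the source nuclei a neuron held up to 32 Hcrt UMIs. The highest glial nucleus of CCI had 2 Hcrt UMIs. The Hcrt source nuclei had 9 to 104, but their rule of at least 5 UMIs places them above it in advance. In WT the glia had 11 Pmch UMIs (2.66 CPM, 1.33 to 4.77) and 1 Hcrt UMI.

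Gal, Trh and Agrp stayed higher in neurons than in glia without source nuclei. The source rule left out 11 Hcrt and 32 Pmch nuclei of CCI, but 2 of Gal, 1 of Trh and 0 of Agrp. With all nuclei kept, CCI glia were at 22.3% of neurons by CPM for Hcrt and 35.5% for Pmch. The same share was 32.2% for Gal, 16.7% for Trh and 36.3% for Agrp, so no difference in kind is read from the values without source nuclei. In CCI neurons without source nuclei Gal was at 6.75 CPM and in glia at 2.34 CPM, so glia were at 34.6% of neurons, and Trh was at 2.22 and 0.389 CPM (17.5%). Thinned, Gal was in 0.858% of neurons (0.649 to 1.11) and 0.270% of glia (0.151 to 0.445), with intervals that did not overlap. Agrp was at 52.0 CPM in WT neurons and 14.8 CPM in WT glia (28.4%), and at 50.4 and 18.3 CPM in CCI (36.3%). The highest of the 6 pan-neuronal genes was at 27.4% in WT, inside the counting interval of Agrp, and at 30.9% in CCI. Other neuronal genes reached similar shares. Slc6a3 (40.6% and 38.9%) and Gad1 (39.7% and 40.7%) were above Agrp in both libraries. Th (33.4% and 31.5%), Gad2 (31.6% and 29.8%), Slc17a6 (29.6% and 27.5%) and Snap25 (29.5% and 25.6%) were above it in WT and below it in CCI. Gad1, Gad2, Slc17a6 and Snap25 are themselves markers of the neuron gate, so their shares are partly set by the gate. Ripor1, which overlaps Agrp, had glial levels of 32.0% and 35.2% of neurons in WT and CCI. Without source nuclei, Cartpt in CCI was at 5.27 CPM (4.63 to 5.96) in neurons and 3.89 CPM (2.89 to 5.13) in glia. Oxt was at 0.317 CPM (0.178 to 0.523) and 0.857 CPM (0.428 to 1.53). The log2 ratio of glia to neurons was −0.44 (−0.90 to 0.01) for Cartpt and 1.43 (0.17 to 2.65) for Oxt. Avp (0.508 and 0.545 CPM), Npvf (0.613 and 0.389 CPM) and Ghrh (0.761 and 0.545 CPM) also had overlapping intervals in neurons and glia of CCI.

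**Figure D4:**
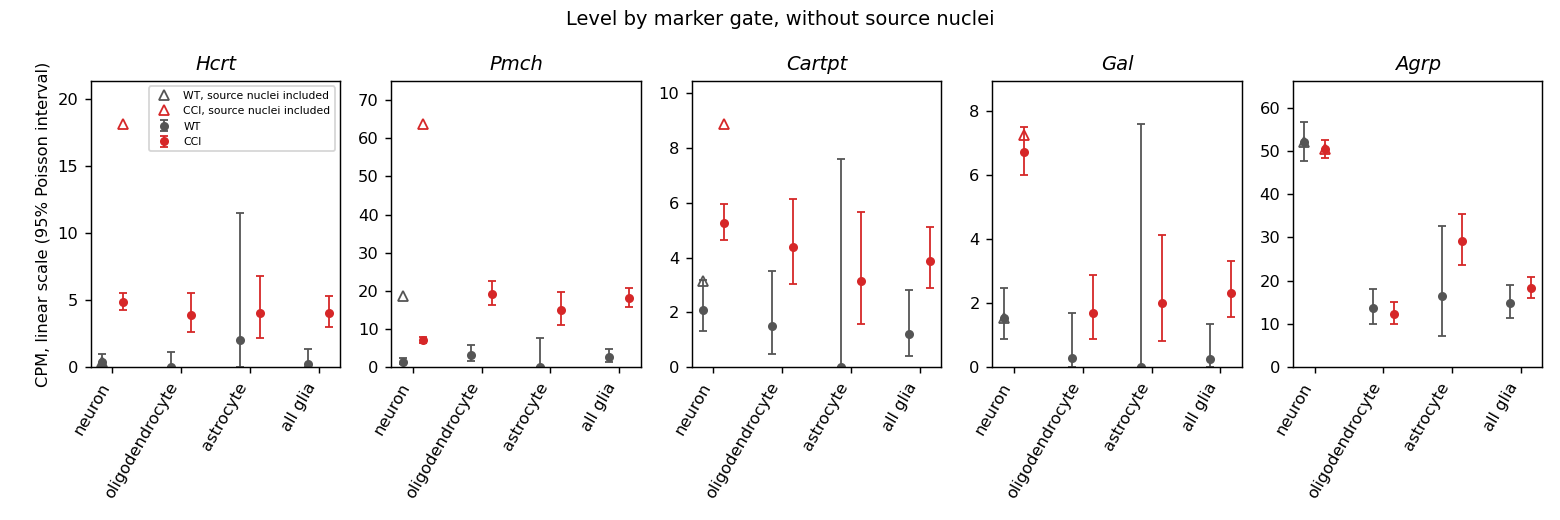
Level in CPM (linear axis from 0) of Hcrt, Pmch, Cartpt, Gal and Agrp in neurons, oligodendrocytes, astrocytes and all glia of the WT and CCI libraries, without source nuclei, with exact Poisson 95% intervals; open triangles give neurons with source nuclei. Without source nuclei CCI neurons fall to 4.85 CPM for Hcrt and 7.20 CPM for Pmch, beside 4.05 and 18.2 CPM in all glia. Gal and Agrp, which had 2 and 0 source nuclei in CCI, stay higher in neurons.

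Outside Agrp few nuclei held more than 1 member, and each of these members was itself found in few nuclei. In WT 95 nuclei held a member other than Agrp and 2 of them held more than 1, while in CCI 1249 nuclei held a member and 102 held more than 1. Hcrt and Pmch were in the same nucleus in 11 CCI nuclei, 5.50% of the nuclei with Hcrt and 1.98% of those with Pmch. Pmch and Cartpt were together in 24 CCI nuclei, 4.32% of those with Pmch and 10.1% of those with Cartpt, and in 2 WT nuclei. Among all CCI nuclei, Pmch was in 4.35%, Cartpt in 1.86% and Hcrt in 1.57%. These shares are not matched for cell class or depth, so nothing about shared expression is read from them. Oxt and Avp were together in 2 CCI nuclei, the Oxt source nucleus and the Avp source nucleus. Agrp was found in 16.7% to 33.3% of the CCI nuclei of each other member, beside 16.7% of all CCI nuclei, a share that includes glia and is not matched for cell class or depth. Doublets had been removed before these counts.

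Of 16 receptor genes 12 had at least 20 UMIs, and 2 of these were at least 2-fold higher and 1 at least 2-fold lower in CCI, beside 5.02% and 2.1% of all genes, with a median log2 ratio of 0.20 beside 0.07 over all genes. Npffr1, a receptor of the RFamide-related peptides, had the highest log2 ratio, 1.85 (1.17 to 2.60), with 19 UMIs in WT and 261 in CCI. Galr1, a galanin receptor, had a log2 ratio of 1.01 (0.42 to 1.66), Galr2 of −1.45 (−2.72 to −0.12), and Hcrtr2, the most counted of them, of 0.21 (0.07 to 0.36). Of 11 genes of peptide processing and granule content none passed 2-fold, with a median of 0.41. Most receptors and all processing genes counted were thus within 2-fold.

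Regional genes of neighbouring areas also differed between the libraries. The counts below stand beside 5.02% of all 19924 genes at least 2-fold higher in CCI and 2.1% at least 2-fold lower. Of 23 hypothalamic transcription factors 19 were counted, 11 were at least 2-fold higher in CCI and 0 lower, with a median of 1.06. Their summed level was 378 CPM in WT and 435 CPM in CCI. Most of it came from Foxp2 (268 and 242 CPM) and Meis2 (65.4 and 117 CPM). Of 14 other hypothalamic peptides 11 were counted, 4 were higher and 0 lower (median 0.24; 39.7 and 54.5 CPM), and Kiss1 was at 0 in both libraries. Of 4 raphe genes 3 were counted and all 3 were higher (median 2.46; 4.75 and 21.1 CPM). Tph2, the serotonin-synthesis enzyme of the raphe, had 34 UMIs in WT and 715 in CCI, where 15 nuclei held 76.1% of them. Of 5 Edinger-Westphal genes, Cartpt among them, 2 were higher and 0 lower (median 0.50). Of 5 tuberomammillary genes 4 were counted, 1 higher and 1 lower (median 0.68). The lower one was Slc18a2 (−1.15), which is also on the dopaminergic list. In the other direction, Gh, growth hormone of the anterior pituitary, had 63 UMIs in 31 WT nuclei and 0 in CCI. Prl, prolactin, had 11 and 0. Against a floor of 3 counts in CCI, the WT levels were 80.2-fold for Gh and 14.0-fold for Prl. These folds leave out counting error. The intervals of the log2 ratio of CCI to WT had upper ends of −5.99 for Gh and −3.26 for Prl. The dopaminergic list was lower in CCI (median −1.05). The part of depth and of these regional genes in the ratios of the members was not tested. With 1 library each, injury, the tissue taken and the library cannot be told apart.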

How the data were processed

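The values are UMI counts of each gene in each barcode, as deposited, made by the authors with Cell Ranger (7.1.0 per the file headers) on build mm10, with Seurat also named in the submitters' processing notes. The library kit was a single cell 3′ v2 protocol per the labels, which describe enzymatic digestion of minced tissue while the series design speaks of nuclei; barcodes are called nuclei here. Strand, intron use and annotation release are not given in the sources used here. Of the 32285 gene identifiers 32235 (99.8%) were in GENCODE vM21, which gave coordinates and transcripts.

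Barcodes were dropped below 200 genes or 500 UMIs or above 20% UMIs from mitochondrial genes, and doublets called by Scrublet in Scanpy 1.11.5 (expected rate 10%) were removed: 1233 in WT (9.19%) and 967 in CCI (7.04%). A nucleus entered a marker gate with at least 3 marker UMIs of that class and at least 2 times those of every other class; 1484 WT and 364 CCI nuclei entered none. CPM is the summed count scaled to a library total of 1000000. Intervals are at the 95% level (SciPy 1.17.1): exact conditional for ratios, Clopper-Pearson for shares and exact Poisson for levels. UMI counts and intervals cover counting error only and not the spread between nuclei, and a gene at 0 was set against a floor of 3 counts over the library. The scripts were tested on simulated data.

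Named genes were all 10 members, counts and up to 4 genes of each list (receptors, processing, partners, regional genes), and, for a member with at least 10 source nuclei, the 5 genes with the highest lower bound of the source to other-neuron ratio among those with at least 20 UMIs there. The members, gene lists and thresholds were chosen with earlier results of these data known, and the gate rule, the description of neurons with at least 3 Gal or Trh UMIs, and the values without source nuclei were added after seeing the data. Alternatives were kept doublets, stricter filters, all barcodes, TMM (edgeR 4.0.16) and DESeq2 1.42.0 size factors, the neuron gate alone, thinning to 1000 UMIs, other gates, other source rules and other minimum counts for background genes.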

Additional observations from a re-analysis of the deposited data

How the results depend on the processing

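Under all alternatives run, the log2 ratio of CCI to WT stayed positive for Hcrt (3.45 to 5.57) and Pmch (1.30 to 2.53). It moved past its counting interval for Hcrt without source nuclei (3.45), and for Pmch in the neuron gate (1.77), thinned to 1000 UMIs (1.30) and without source nuclei (2.53). Thinning leaves out 6293 of the 12191 WT nuclei. The 11 Hcrt source nuclei of CCI became 5 at 10 UMIs and 5000 CPM and 4 after thinning. Hcrt in WT glia fell to 0 CPM after thinning, Pmch in WT glia to 1.15 CPM, and Pmch in CCI glia moved from 22.7 CPM to 18.2 CPM without source nuclei and to 25.7 CPM thinned. The cause was not tested. Near 0, Avp moved to −0.38 thinned and 3.02 without source nuclei, and Agrp to −0.40 thinned, −0.05 in the neuron gate and −0.02 with stricter filters and with DESeq2 size factors. The share of genes at least 2-fold higher and lower was 15.6% and 6.4% with no minimum count, and 2.03% and 1% with at least 100 UMIs. Of 75 ratios under alternatives 68 kept their value within the counting interval, as did 63 of 70 glial levels. Counts of source nuclei and of co-detection had no interval, and 99 of 120 and 10 of 10 were classed as kept by a coarser rule. Under it the Hcrt source nuclei of CCI were kept when 11 became 16 and moved when 11 became 5.

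No paired analysis was possible because each group is 1 library and no replicate numbers exist, so leaving out replicates does not apply. Depth limits WT most: Hcrt, Trh, Oxt, Npvf and Ghrh rest on 7 or fewer UMIs there.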

Other observations

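Doublets removed by the filter held further peptide signal. In CCI they held 519 Pmch UMIs, with 240, 185 and 34 in the leading 3 barcodes, and 54 Hcrt UMIs, with 29 in the leading barcode. In WT 1 removed barcode held 4 Hcrt UMIs with 1 Lhx9 and 1 Pmch UMI, more Hcrt than any kept WT nucleus.

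Genes of other neighbouring nuclei differed in how widely they were spread. Hdc, the histamine-synthesis enzyme of the tuberomammillary nucleus, had 14 UMIs in WT and 203 in CCI, with at most 5 and 33 in a nucleus and an effective number of 12.3 nuclei in CCI. Pomc, made in the arcuate nucleus and the pituitary, had 26 UMIs in WT, of which 2 nuclei held 13, and 62 in CCI, with at most 6 in a nucleus and an effective number of 37.0. Npy and Tac2 were spread more widely in CCI, with effective numbers of 92.4 and 81.9 nuclei.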
